A study of Mus musculus with 9 samples.

Results

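Imprinted genes are transcribed mainly from the allele inherited from a single parent, and 46 of them, each taken from the deposited tables by its symbol, are described here out of the 34617 gene symbols that the tables hold. By background knowledge of mouse tissues, 23 are expressed from the paternal allele (for example Igf2, Mest, Snrpn and Peg3), 21 from the maternal allele (for example H19, Cdkn1c, Meg3 and Phlda2), and in 2, Gnas and Grb10, the parent depends on the isoform or tissue. Every symbol had a row, and for Rian, the only member with more than 1 row, the row with the higher value was taken, the other being listed at 0 in every cell type. The study sequenced RNA from 9 libraries of 4 female mouse germ cell types in order to compare X-linked with autosomal expression. E12.5 PGCs (3 libraries, passage 0, called PGCs below) are primordial germ cells of XX genital ridges at embryonic day 12.5, and FGSCs, the female germline stem cells (2 libraries, passage 0), came from ovaries of mice aged 3 to 5 days. Both were sorted as GFP-positive cells of Mvh-GFP mice (Mvh-cre; ROSA mT/mG), in which Cre under the Mvh (Ddx4) promoter switches on GFP, so a cell that is not a germ cell but had once used that promoter would also be sorted. GV oocytes (2 libraries) are immature oocytes with an intact germinal vesicle, and were taken to be the fully grown oocytes of the paper, from hormone-primed mice aged 6 weeks, freed of cumulus cells. MII oocytes (2 libraries) are mature oocytes at the second meiotic metaphase, and the paper's methods do not describe how they were collected. The labels give C57BL/6 for all 9 libraries, so the parental alleles carry no strain differences and were not measured: every value below is the sum over both alleles.

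The parental marks are DNA methylation patterns set in the germ line. They are erased in primordial germ cells, and maternal marks are laid down again in growing oocytes by Dnmt3a with its partner Dnmt3l. After fertilisation the marks are protected by factors such as Zfp57 and Dppa3, so that each allele keeps the memory of the parent it came from. Many imprinted genes act on fetal growth, on the placenta and on the brain, and many lie in clusters in which neighbouring genes are expressed from opposite parental alleles.

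The tables hold 1 FPKM value (fragments mapped to a gene, relative to transcript length and to all mapped fragments) per gene and cell type, pooled by the authors, so no spread between libraries and no test can be given, and the depth of reads is unknown. A member is said below to be higher or lower, or to have risen or fallen, where the pooled values differ by at least 1 on the log2(FPKM + 1) scale, which is 2-fold for a well expressed gene, and each count is read beside the share of all 34617 genes past the same limit. The FPKM of all rows added up to 688500 in PGCs, 417955 in FGSCs, 560962 in GV oocytes and 1232440 in MII oocytes, so levels were also compared after rescaling. Ddx4, a marker of the germ line, was at 64.0, 59.0, 31.9 and 17.2 FPKM in that order, and the zona pellucida gene Zp3 at 6.80, 6.49, 4780 and 790 FPKM. The fall of Ddx4 was not shared by most of the 10 germ cell markers listed. In GV oocytes 6 of the 10 were higher (background 13.7%) and 2 lower (background 12.6%) than in PGCs. Between GV and MII oocytes 3 rose (background 15.7%) and 4 fell (background 12.2%). Erythroid genes, of which Hba-x alone was at 10452 FPKM in PGCs, are not genes of germ cells, and 10 of them summed to 16152, 6328, 46.1 and 3.74 FPKM in the same order. Hba-x was at 1599 FPKM in FGSCs, and Hbb-y was at 3378 FPKM in PGCs and 3273 FPKM in FGSCs. PGCs and FGSCs therefore also held transcripts of another cell type. Why FGSCs, taken from ovaries of mice aged 3 to 5 days, held nearly as much Hbb-y as PGCs was not tested.

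Imprinted genes were expressed more often than genes at large in all 4 cell types, and their median level was lowest in the oocytes. Of the 46 members, 32 reached 1 FPKM in PGCs, 37 in FGSCs, 29 in GV oocytes and 24 in MII oocytes, or 69.6%, 80.4%, 63.0% and 52.2%, where the shares of all genes were 31.2%, 34.8%, 34.4% and 33.0%. The median member was at 12.3 FPKM in PGCs, 10.53 in FGSCs, 2.97 in GV oocytes and 1.39 in MII oocytes. The medians of paternally and maternally expressed members were farthest apart in MII oocytes. There the median of the 23 paternally expressed members was 0.339 FPKM, with 8 at 1 FPKM or more, and that of the 21 maternally expressed members was 7.81 FPKM, with 14 at 1 FPKM or more. In PGCs the same medians were 11.7 and 8.87 FPKM. Of the 35 members that reached 5 FPKM in some cell type, 13 were highest in PGCs, 11 in FGSCs, 2 in GV oocytes and 9 in MII oocytes. Among all 11644 genes that reached 5 FPKM, 24.6%, 16.1%, 17.0% and 42.3% were highest in these cell types. The 9 members highest in MII oocytes comprised 7 maternally and 2 paternally expressed genes. These counts depend on the scaling. When each cell type was rescaled to the same sum, 9 members were highest in PGCs, 19 in FGSCs, 3 in GV oocytes and 4 in MII oocytes, of which 3 were maternally and 1 paternally expressed, and 17.6%, 31.7%, 21.8% and 28.9% of all genes were highest in these cell types. By median ratios the members counted 13, 13, 2 and 7.

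**Figure D1:**
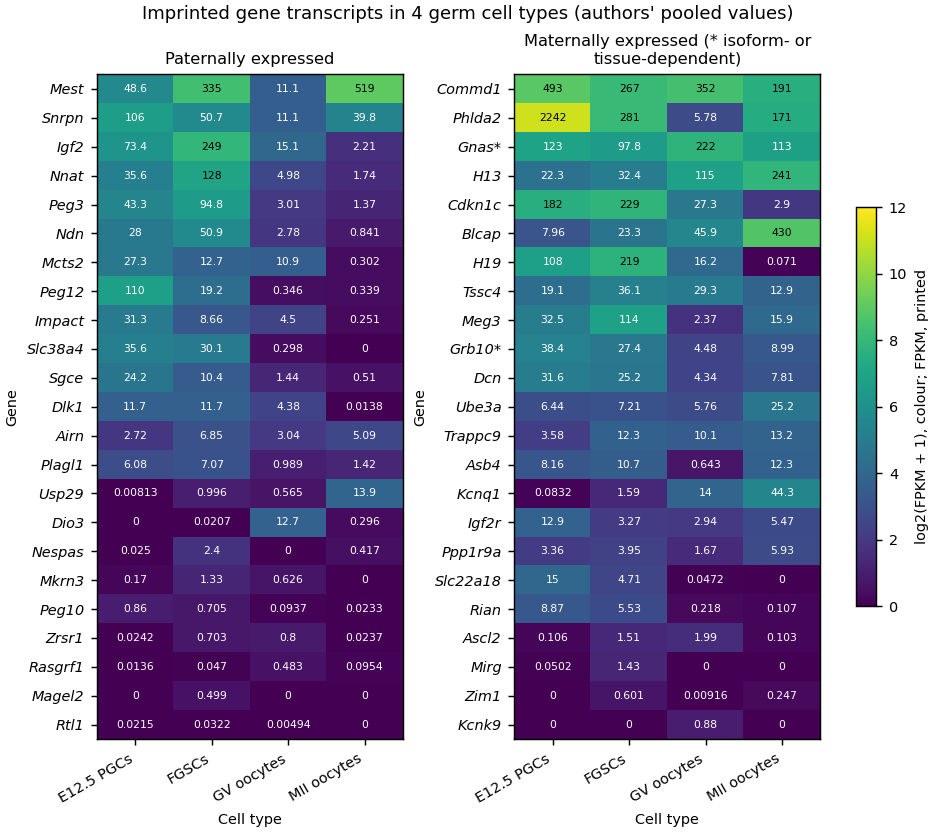
FPKM of each of the 46 imprinted genes (rows) in the 4 cell types (columns), paternally expressed genes on the left and maternally expressed genes, with Gnas and Grb10 marked by an asterisk, on the right. Colour is log2(FPKM + 1), the number in each cell is the authors' pooled FPKM, and the paternally expressed column of GV oocytes holds no value above 15.1 FPKM while that of FGSCs reaches 335 for Mest.

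Paternally expressed genes with roles in fetal growth differed widely in level. Igf2, a growth factor of the fetus and placenta, was at 73.4 FPKM in PGCs, 249 in FGSCs, 15.1 in GV oocytes and 2.21 in MII oocytes. Plagl1, a zinc finger transcription factor known to act on other imprinted genes, was at 6.08, 7.07, 0.989 and 1.42 FPKM in that order. Dlk1, a membrane protein related to Notch ligands, had 11.7, 11.7, 4.38 and 0.0138 FPKM. Igf2 was highest in FGSCs, Plagl1 and Dlk1 stood about level in PGCs and FGSCs, and all 3 had less in both kinds of oocyte. Mest, a protein with a hydrolase fold that is abundant in fetal mesoderm, was at 48.6 FPKM in PGCs, 335 in FGSCs, 11.1 in GV oocytes and 519 in MII oocytes. It was the highest member in FGSCs and again in MII oocytes. Peg3, a zinc finger protein of growth and of maternal behaviour, was at 43.3, 94.8, 3.01 and 1.37 FPKM in order of stage, so that both kinds of oocyte had under 5 FPKM.

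The cluster that corresponds to the human Prader-Willi region on mouse chromosome 7 holds 3 paternally expressed members above 5 FPKM, each of which had less in GV oocytes than in PGCs and FGSCs. Snrpn, which encodes a spliceosome protein abundant in neurons, was at 106 FPKM in PGCs, 50.7 in FGSCs, 11.1 in GV oocytes and 39.8 in MII oocytes. Ndn, the MAGE family protein necdin, was at 28.0, 50.9, 2.78 and 0.841 FPKM. Peg12, a member of the Frat family that binds the kinase Gsk3, was at 110, 19.2, 0.346 and 0.339 FPKM. Of these Snrpn had more in MII than in GV oocytes, a call that was lost on rescaling. Ube3a, a maternally expressed gene of the same region, differed by less than 1 between GV oocytes and either PGCs or FGSCs. The 2 other paternally expressed members of the cluster were scarce, with Magel2, also of the MAGE family, listed at 0 outside FGSCs, where it was at 0.499 FPKM, and Mkrn3, a ring finger protein, never above 1.33 FPKM.

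Among the paternally expressed genes of membranes and metabolism, Slc38a4 and Dio3 had opposite patterns. Slc38a4, an amino acid transporter of liver and placenta, was at 35.6 FPKM in PGCs, 30.1 in FGSCs and 0.298 in GV oocytes, and was listed at 0 in MII oocytes. Dio3, the deiodinase that inactivates thyroid hormone, was listed at 0 in PGCs and was at 0.0207 FPKM in FGSCs, 12.7 in GV oocytes and 0.296 in MII oocytes. Dio3 was the only paternally expressed member whose highest value was in GV oocytes among those that reached 5 FPKM. Nnat, a small membrane protein of the brain named neuronatin, was at 35.6, 128, 4.98 and 1.74 FPKM in order of stage. Sgce, epsilon-sarcoglycan of the dystrophin complex, was at 24.2, 10.4, 1.44 and 0.510 FPKM. Impact, which restrains the kinase Gcn2, was at 31.3, 8.66, 4.50 and 0.251 FPKM. Of these last genes Nnat peaked in FGSCs, while Sgce and Impact had their highest level in PGCs and less in each other cell type.

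The remaining paternally expressed members include transcripts that lie within or antisense to other imprinted genes. Mcts2, a retrogene within an intron of H13, was at 27.3 FPKM in PGCs, 12.7 in FGSCs, 10.9 in GV oocytes and 0.302 in MII oocytes. Airn, a long noncoding RNA antisense to Igf2r that silences Igf2r on the paternal allele in somatic tissues, was at 2.72, 6.85, 3.04 and 5.09 FPKM, the narrowest range of the paternally expressed members that reached 5 FPKM, 2.52-fold between the highest and the lowest. Usp29, of the ubiquitin-specific protease family, was at 0.00813, 0.996, 0.565 and 13.9 FPKM. As deposited, Usp29 thus reached 1 FPKM in MII oocytes alone. Below 5 FPKM everywhere were, beside Magel2 and Mkrn3, Peg10 and Rtl1, which derive from retrotransposons, Zrsr1, a retrogene within Commd1, Rasgrf1, an exchange factor of Ras, and Nespas, an antisense transcript at Gnas. Nespas reached 2.40 FPKM in FGSCs, and the other 4 stayed under 1 FPKM, Rtl1 at no more than 0.0322.

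Several maternally expressed members that restrain growth were among the most abundant imprinted transcripts of PGCs. Phlda2, a pleckstrin homology protein that limits growth of the placenta, was at 2242 FPKM in PGCs, 281 in FGSCs, 5.78 in GV oocytes and 171 in MII oocytes. It was the highest member in PGCs, with 387 times its level in GV oocytes. Cdkn1c, the cyclin-dependent kinase inhibitor p57, was at 182, 229, 27.3 and 2.90 FPKM in order of stage. Igf2r, the receptor that removes Igf2, was at 12.9, 3.27, 2.94 and 5.47 FPKM. H19, a long noncoding RNA that shares enhancers with Igf2, was at 108, 219, 16.2 and 0.0710 FPKM. H19 and Cdkn1c thus shared the order of Igf2, with the highest level in FGSCs and the lowest in MII oocytes.

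The neighbours of Cdkn1c and Phlda2 in the Kcnq1 domain did not share one pattern. Kcnq1, a voltage-gated potassium channel, was at 0.0832 FPKM in PGCs, 1.59 in FGSCs, 14.0 in GV oocytes and 44.3 in MII oocytes. Slc22a18, of the organic cation transporter family, was at 15.0, 4.71 and 0.0472 FPKM in the first 3 cell types and was listed at 0 in MII oocytes. Tssc4, whose human product takes part in assembly of the spliceosome, was at 19.1, 36.1, 29.3 and 12.9 FPKM. Kcnq1 therefore had its highest value where Slc22a18 was listed at 0. Ascl2, a transcription factor of trophoblast, stayed between 0.103 and 1.99 FPKM.

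The maternally expressed noncoding RNAs of the Dlk1-Dio3 cluster were present mainly in PGCs and FGSCs. Meg3 was at 32.5 FPKM in PGCs, 114 in FGSCs, 2.37 in GV oocytes and 15.9 in MII oocytes. Rian, the host transcript of a series of small nucleolar RNAs, was at 8.87, 5.53, 0.218 and 0.107 FPKM. Mirg, a host of microRNAs, reached 1.43 FPKM in FGSCs and was listed at 0 in both kinds of oocyte. Only Meg3 of these was above 1 FPKM in MII oocytes. The libraries were primed with oligo(dT), which captures RNA that lacks a poly(A) tail poorly, and the share of these RNAs with a tail was not measured.

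Further maternally expressed members had their highest deposited value in MII oocytes, which for 4 of the 6 below depended on the scaling. H13, the signal peptide peptidase of the endoplasmic reticulum, was at 22.3 FPKM in PGCs, 32.4 in FGSCs, 115 in GV oocytes and 241 in MII oocytes. Blcap, a small membrane protein gene next to Nnat, was at 7.96, 23.3, 45.9 and 430 FPKM. Each of these values is above that of the cell type listed before it. The steps of H13 between PGCs and FGSCs, 0.52, and of Blcap between FGSCs and GV oocytes, 0.95, were under the limit. The step of H13 between GV and MII oocytes was lost on rescaling, and H13 was highest in GV oocytes when each cell type was rescaled to the same sum. Ube3a, the ubiquitin ligase of Angelman syndrome, was at 6.44, 7.21, 5.76 and 25.2 FPKM. Trappc9, a subunit of a complex of vesicle transport, was at 3.58, 12.3, 10.1 and 13.2 FPKM. Ppp1r9a, the actin-binding protein neurabin, was at 3.36, 3.95, 1.67 and 5.93 FPKM. Asb4, an ankyrin repeat protein of ubiquitin ligase complexes, was at 8.16, 10.7, 0.643 and 12.3 FPKM. Blcap and Ube3a were highest in MII oocytes under both rescalings as well, whereas Trappc9, Ppp1r9a and Asb4 were highest in FGSCs when rescaled to the same sum, and Trappc9 and Asb4 also by median ratios.

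Commd1, a COMM domain protein of copper handling, was high throughout, at 493 FPKM in PGCs, 267 in FGSCs, 352 in GV oocytes and 191 in MII oocytes, and was the highest member in GV oocytes. Dcn, the matrix proteoglycan decorin of connective tissue, was at 31.6, 25.2, 4.34 and 7.81 FPKM. Of the members with a parental origin that depends on isoform or tissue, Gnas, the stimulatory G protein alpha subunit, was at 123, 97.8, 222 and 113 FPKM, and Grb10, an adaptor that dampens insulin receptor signalling, at 38.4, 27.4, 4.48 and 8.99 FPKM. Gnas was the other member, with Dio3, that was highest in GV oocytes among those that reached 5 FPKM. Zim1, a zinc finger gene near Peg3, and Kcnk9, a potassium channel, stayed under 1 FPKM in every cell type, and Kcnk9 was listed at 0 outside GV oocytes.

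Against PGCs, GV oocytes had less of many imprinted transcripts, of both parental classes. In GV oocytes 23 of 46 members were lower than in PGCs (background 12.6% of all genes) and 6 were higher (background 13.7%), and the median member differed by -1.003 on the log2(FPKM + 1) scale where the median of all genes was 0. In bulk samples fewer cells with a transcript and less of it per cell cannot be told apart. Among paternally expressed members 13 of 23 fell and 1 rose, and among maternally expressed members 9 of 21 fell and 5 rose. Grb10 also fell, with a difference of -2.85, and that of Gnas was 0.85. Phlda2 had the largest fall, with a difference of -8.37 on the log2 scale and 5.78 FPKM in GV oocytes against 2242 FPKM in PGCs. The difference was -6.36 for Peg12, which fell to 0.346 FPKM in GV oocytes, and -4.82 for Slc38a4. Slc22a18, Peg3, Sgce, Meg3, Snrpn and Rian had differences between -3.94 and -3.02. The 6 members that rose were Kcnq1 by 3.79, Dio3 by 3.78, Blcap by 2.39, H13 by 2.31, Ascl2 by 1.44 and Trappc9 by 1.28. Over the 35 members and 13676 genes with a mean of at least 1 FPKM, 23 members were lower (background 29.1%) and 5 higher (background 31.5%). Genes at or above 1 FPKM in every cell type had a median log2 ratio of -0.16 in this comparison, and after rescaling each cell type to the same sum, or by median ratios, the 6 rises and 22 of the 23 falls kept their call, the exception being Mcts2.

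Against FGSCs, too, GV oocytes had less of many imprinted transcripts. In GV oocytes 22 of 46 members were lower than in FGSCs (background 11.4%) and 4 were higher (background 11.5%), with a median member difference of -0.93. Over the 35 members with a mean of at least 1 FPKM, 20 were lower (background 25.2%) and 4 higher (background 26.7%). Because both comparisons use the same GV oocyte values, the calls in one are not independent of those in the other. Among paternally expressed members 12 of 23 fell and 1 rose, and among maternally expressed members 9 of 21 fell and 2 rose. The differences were -5.38 for Phlda2, -5.09 for Meg3, -4.79 for Mest, -4.58 for both Slc38a4 and Peg3 and -4.44 for Nnat. Igf2 had a difference of -3.95, with 15.1 FPKM in GV oocytes against 249 FPKM in FGSCs, and H19 one of -3.67, with 16.2 FPKM in GV oocytes against 219 FPKM in FGSCs. The 4 higher members were Dio3 by 3.75, Kcnq1 by 2.53, H13 by 1.80 and Gnas by 1.17, and only the call of Gnas was lost when the values were rescaled, while all 22 lower calls were kept. Rescaling to the same sum moved the background itself, in which 50.1% of calls over all genes were higher in GV oocytes as deposited and 38.0% when rescaled.

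**Figure D2:**
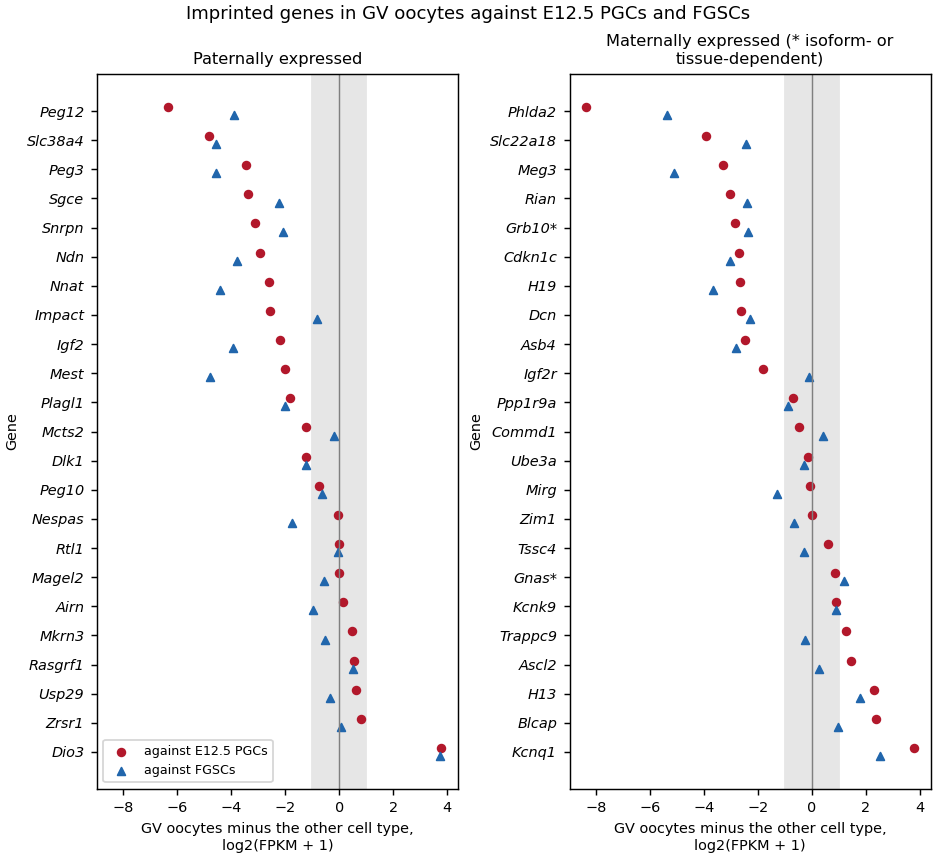
Difference of each imprinted gene in GV oocytes from PGCs (red circles) and from FGSCs (blue triangles) on the log2(FPKM + 1) scale, paternally expressed genes on the left, maternally expressed genes with Gnas and Grb10 (asterisk) on the right. The grey band marks differences under 1, and Dio3 at 3.78 stands alone on the right of the paternally expressed panel. Phlda2 at -8.37, in the maternally expressed panel, is the farthest left.

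Many markers of somatic cells were also lower in GV oocytes, to an extent that differed between lists. The 10 mesenchyme genes summed to 41.5 FPKM in GV oocytes, against 214 in PGCs and 141 in FGSCs, with 7 of 10 lower and 1 higher in GV oocytes than in PGCs and 7 of 10 lower than in FGSCs. The defining markers Pdgfra and Pdgfrb were at 0.781 and 0.0767 FPKM in GV oocytes. The 15 granulosa and pregranulosa genes summed to 83.4 FPKM in GV oocytes, against 173 in PGCs and 359 in FGSCs, with 6 lower and 3 higher in GV oocytes than in PGCs and 10 lower and 3 higher than in FGSCs. Foxl2, the defining factor of this lineage, was at 3.39 FPKM in GV oocytes, against 0 in PGCs and 1.13 FPKM in FGSCs, and so did not share that direction. The 10 endothelial genes summed to 12.2 FPKM in GV oocytes, against 82.9 in PGCs and 102 in FGSCs, and 4 and 8 of them were lower and none higher in these comparisons. Of the 10 erythroid genes, 9 were lower in GV oocytes than in PGCs and 9 than in FGSCs. The 9 leukocyte genes measured summed to 6.42 FPKM in GV oocytes, against 46.5 in PGCs and 29.1 in FGSCs, with 4 lower and 2 higher in GV oocytes than in PGCs and 4 lower and 1 higher than in FGSCs. Fcer1g alone gave 29.4 FPKM of the sum in PGCs, and Ptprc, which defines that lineage, was listed at 0 in GV oocytes and PGCs. The 23 paternally expressed members summed to 89.4 FPKM in GV oocytes, against 584 in PGCs and 1022 in FGSCs. Igf2, H19, Dlk1, Dcn and Mest are known to be abundant in somatic cells of fetal tissues, and the part of such cells in the result was not tested.

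**Figure D3:**
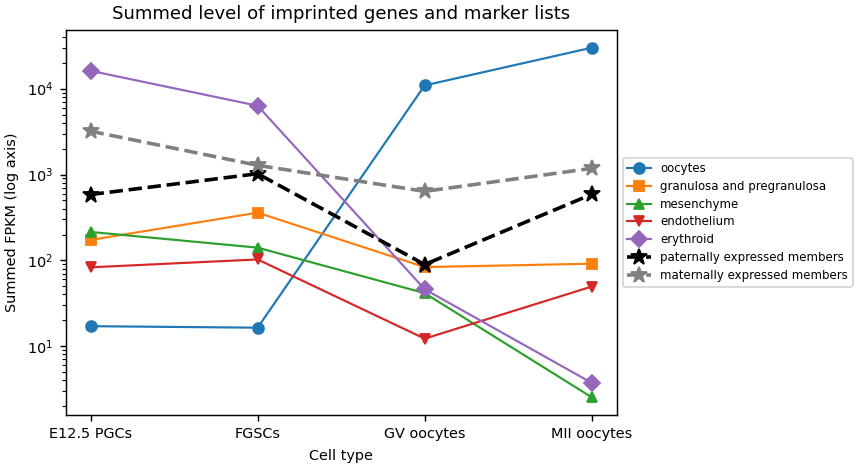
Summed FPKM (log axis) of the paternally expressed (black dashed) and maternally expressed (grey dashed) imprinted genes and of 5 marker lists (coloured lines) in the 4 cell types. The paternally expressed sum is at its lowest, 89.4 FPKM, in GV oocytes and at 588 FPKM in MII oocytes, 519 of it Mest, where the mesenchyme sum is at 2.54 FPKM.

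FGSCs differed from PGCs in both directions. In FGSCs 13 of 46 members were higher than in PGCs (background 9.31%) and 8 were lower (background 7.93%), and the median member differed by 0.26. Over the 35 members with a mean of at least 1 FPKM, 10 were higher (28.6%, background 19.3%) and 8 lower (22.9%, background 18.4%). Here the share of lower members was near that of genes at large. Paternally expressed members counted 6 higher and 5 lower, and maternally expressed members 7 higher and 3 lower. The largest rise was that of Mest, by 2.76, followed by Nnat by 1.82, Meg3 by 1.78, Igf2 by 1.75 and Nespas by 1.73. Trappc9 rose by 1.54, Blcap by 1.44, Kcnq1 by 1.26, Mirg by 1.21, Ascl2 by 1.18, Peg3 by 1.11, Airn by 1.08 and H19 by 1.005. Phlda2 had the largest fall, with a difference of -2.99 and 281 FPKM in FGSCs against 2242 FPKM in PGCs, followed by -2.46 for Peg12, -1.74 for Impact and -1.70 for Igf2r. Slc22a18, Sgce, Mcts2 and Snrpn had differences between -1.49 and -1.04, and lost this call when rescaled to the same sum, Sgce, Mcts2 and Snrpn also by median ratios. Genes at or above 1 FPKM in every cell type had a median log2 ratio of -0.32 in this comparison. When each cell type was rescaled to the same sum, 23 members were higher and 4 lower, or 85.2% of calls higher against 61.9% as deposited and 82.0% against 54.0% over all genes, and by median ratios 17 were higher and 5 lower, or 77.3% against 63.3% over all genes. All 13 higher members kept their call under both. Granulosa and pregranulosa genes also stood higher in FGSCs, with 7 of 15 higher, none lower, and a sum of 359 FPKM in FGSCs against 173 FPKM in PGCs, and their part in the result was not tested. Leaving out members whose listed span also holds another gene left 27, with 3 higher (background 9.31%) and 6 lower (background 7.93%). The higher calls were then near their background share, and the lower calls were the more frequent.

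Between GV and MII oocytes as many members rose as fell in the values as deposited, a balance that changed with the scaling. In MII oocytes 11 of 46 members were higher than in GV oocytes (background 15.7%) and 11 were lower (background 12.2%). Over the 35 members with a mean of at least 1 FPKM 11 were higher (31.4%, background 35.6%) and 10 lower (28.6%, background 28.4%). These shares of the 35 members are close to those of genes at large. Of maternally expressed members 8 of 21 rose and 4 fell, and of paternally expressed members 3 of 23 rose and 7 fell. When each cell type was rescaled to the same sum, 4 maternally expressed members rose and 6 fell, and 2 paternally expressed members rose and 11 fell. The difference between the classes was not tested. The libraries were primed with oligo(dT) and poly(A) tails were not measured, so differences in capture and in amount of transcript cannot be told apart. Mest rose by 5.42, with 519 FPKM in MII oocytes against 11.1 FPKM in GV oocytes, a ratio of 46.6. Phlda2 rose by 4.66, with 171 FPKM in MII oocytes against 5.78 FPKM in GV oocytes, and Usp29 by 3.25, Blcap by 3.20, Asb4 by 3.02 and Meg3 by 2.33. These 6 members kept their call under both rescalings. H13, Kcnq1, Ppp1r9a, Snrpn and Ube3a, which rose by between 1.06 and 1.96, did not, and H13 was at -0.0650 when each cell type was rescaled to the same sum. H19 had the largest fall, with a difference of -4.01 and 0.0710 FPKM in MII oocytes against 16.2 FPKM in GV oocytes, followed by -3.40 for Dio3, -3.19 for Mcts2, -2.86 for Cdkn1c, -2.41 for Dlk1, -2.33 for Igf2 and -2.14 for Impact. Ascl2, Nnat, Tssc4 and Ndn had differences between -1.44 and -1.04, and all 11 falls kept their call under both rescalings. Genes at or above 1 FPKM in every cell type had a median log2 ratio of 0.49 here. When each cell type was rescaled to the same sum, 6 members were higher and 18 lower, or 25.0% of calls higher against 50% as deposited and 34.3% against 56.2% over all genes, and by median ratios 10 were higher and 14 lower, or 41.7% against 47.7% over all genes. Of 10 oocyte markers 4 were higher and 5 lower in MII than in GV oocytes, with a median difference of -0.91. Their sum was 30022 FPKM in MII oocytes against 10917 FPKM in GV oocytes, and that of Gdf9 within it 12412 FPKM in MII oocytes against 2093 FPKM in GV oocytes. The cumulus genes summed to 238 FPKM in MII oocytes against 58.8 FPKM in GV oocytes, nearly all of it Sdc1. The mesenchyme genes summed to 2.54 FPKM in MII oocytes against 41.5 FPKM in GV oocytes, with 5 of 10 lower. Of the 15 granulosa and pregranulosa genes 7 were lower and 3 higher in MII oocytes, with a sum of 91.4 FPKM in MII oocytes against 83.4 FPKM in GV oocytes, of which Cyp19a1 gave 68.2 FPKM in MII oocytes against 0.379 FPKM in GV oocytes. The part of such cells in the result was not tested.

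In Mcts2 with H13 and Nnat with Blcap, neighbours that are expressed from opposite parental alleles, the levels stood far apart in oocytes, which was not so in every such pair. In mm9, the assembly of the tables, Mcts2 and H13 are listed with the same span, chr2:152495197-152534406, and Nnat and Blcap with the same span, chr2:157382098-157397010. Per transcript length, H13 stood at 0.817 times Mcts2 in PGCs, 2.55 times in FGSCs, 10.53 times in GV oocytes, and in MII oocytes H13 was at 241 FPKM and Mcts2 at 0.302 FPKM. Blcap stood at 0.223 times Nnat in PGCs, 0.181 times in FGSCs, 9.21 times in GV oocytes and 247 times in MII oocytes. In both pairs the maternally expressed gene had the smaller value in PGCs and by far the greater in oocytes. Reads of genes with a shared span can be told apart only by exon and strand, and the sources used here do not state that counting used strand.

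Because these pairs move apart, their promoters are shown, as 300 bases of RefSeq on GRCm38.p6 (250 bases before each start and 50 after it), 5′ to 3′ on the strand of the gene, with capitals at the letters TGCCGC and, for the other strand, GCGGCA. This hexamer is the core of the methylated motif bound by Zfp57 in the mouse. The windows are chr2:152686898-152687197 on the plus strand for Mcts2, chr2:152669211-152669510 on the plus strand for H13, chr2:157559828-157560127 on the plus strand for Nnat and chr2:157566312-157566611 on the minus strand for Blcap. Mest is shown beside them because it had the largest rise in MII oocytes, with its window at chr6:30737800-30738099 on the plus strand. A window around another start of Mest, chr6:30733256-30733555, held 8 CpG and no hexamer.
Mcts2: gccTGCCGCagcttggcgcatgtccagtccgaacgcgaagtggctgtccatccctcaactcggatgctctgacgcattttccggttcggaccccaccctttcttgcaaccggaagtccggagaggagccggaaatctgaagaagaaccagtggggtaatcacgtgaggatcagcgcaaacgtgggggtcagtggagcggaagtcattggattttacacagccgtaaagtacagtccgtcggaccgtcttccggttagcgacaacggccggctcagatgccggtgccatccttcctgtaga
H13: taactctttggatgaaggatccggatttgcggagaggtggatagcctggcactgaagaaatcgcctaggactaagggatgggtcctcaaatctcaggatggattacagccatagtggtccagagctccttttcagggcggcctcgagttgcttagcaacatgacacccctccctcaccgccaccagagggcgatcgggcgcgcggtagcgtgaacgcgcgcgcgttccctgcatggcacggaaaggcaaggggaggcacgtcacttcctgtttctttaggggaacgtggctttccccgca
Nnat: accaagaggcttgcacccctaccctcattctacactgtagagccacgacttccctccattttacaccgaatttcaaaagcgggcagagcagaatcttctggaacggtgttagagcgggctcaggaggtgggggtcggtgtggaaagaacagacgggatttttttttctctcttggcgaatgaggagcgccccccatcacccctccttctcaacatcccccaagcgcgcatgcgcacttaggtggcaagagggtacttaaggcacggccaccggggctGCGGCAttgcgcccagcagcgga
Blcap: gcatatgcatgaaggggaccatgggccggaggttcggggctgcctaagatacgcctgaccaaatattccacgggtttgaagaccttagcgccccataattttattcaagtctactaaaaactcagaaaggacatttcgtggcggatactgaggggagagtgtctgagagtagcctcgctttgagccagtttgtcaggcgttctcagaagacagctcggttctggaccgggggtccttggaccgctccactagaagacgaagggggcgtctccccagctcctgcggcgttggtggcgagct
Mest: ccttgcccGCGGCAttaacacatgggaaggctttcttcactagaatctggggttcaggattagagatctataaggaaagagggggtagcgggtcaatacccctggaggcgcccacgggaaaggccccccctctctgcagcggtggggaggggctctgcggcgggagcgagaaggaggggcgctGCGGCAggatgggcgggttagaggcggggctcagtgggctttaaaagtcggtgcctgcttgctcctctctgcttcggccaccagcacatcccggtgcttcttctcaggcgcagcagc

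The windows of the paternally expressed Mcts2 and Nnat each held the hexamer once and that of Mest held it at 2 places, whereas those of the maternally expressed H13 and Blcap held none. Other regions differed. The maternally expressed Commd1, Meg3 and Zim1 held the hexamer in a window, while the paternally expressed Zrsr1, Dlk1, Peg3 and Usp29 near them held none. In the Prader-Willi region the paternally expressed Snrpn held it in a window and the maternally expressed Ube3a did not. The windows held 25 CpG in Mcts2, 21 in H13 and 17 each in Nnat, Blcap and Mest. Over all members, 35 of 46 matched a RefSeq promoter, and 10 of these 35 (28.6%) had the hexamer in either orientation, with 6 of 18 paternally expressed, 3 of 15 maternally expressed and 1 of 2 others. Of all 27025 genes with a promoter, 13.1% had it. The members were richer in CpG, with a median of 17 in the CpG-richest window of each gene, where all genes had 8. Counted over single windows the medians were 14 for members and 7 for all genes. Among the 9151 genes with at least 17 CpG in a window 28.1% held the hexamer. Their median was 27 CpG, above that of the members, so this set was not matched to the members in CpG. A match of letters is a description and says nothing of binding or of methylation in these cells, which were not measured here.

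Other neighbours moved together or crossed. Igf2 (chr7:149836673-149856261, mm9) and H19 (chr7:149761434-149764048) stayed close, with H19 at 1.48 times Igf2 in PGCs, 0.878 times in FGSCs and 1.07 times in GV oocytes, while MII oocytes had 2.21 FPKM of Igf2 and 0.0710 FPKM of H19. Meg3 (chr12:110779211-110809936) stood at 2.77 times Dlk1 (chr12:110691033-110701546) in PGCs and 9.74 times in FGSCs but at 0.542 times in GV oocytes, and in MII oocytes Meg3 was at 15.9 FPKM and Dlk1 at 0.0138 FPKM. Both genes of that pair fell in GV oocytes, Meg3 the more. Peg3 (chr7:6656603-6683132) and Usp29 (chr7:6913871-6916480) are both paternally expressed and their RefSeq starts lie 164 bases apart on opposite strands in GRCm38.p6. Peg3 was at 43.3 FPKM and Usp29 at 0.00813 FPKM in PGCs, 94.8 and 0.996 FPKM in FGSCs, 3.01 and 0.565 FPKM in GV oocytes, and 1.37 and 13.9 FPKM in MII oocytes, so that Usp29 was the higher of them in MII oocytes alone. In the tables, by contrast, the span of Usp29 begins 230738 bases beyond that of Peg3 (mm9), so the sources place the 5′ end of Usp29 differently. Igf2r was at 4.74 times Airn in PGCs, 0.478 times in FGSCs, 0.966 times in GV oocytes and 1.07 times in MII oocytes, both genes being listed with the span chr17:12875272-13061009.

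**Figure D4:**
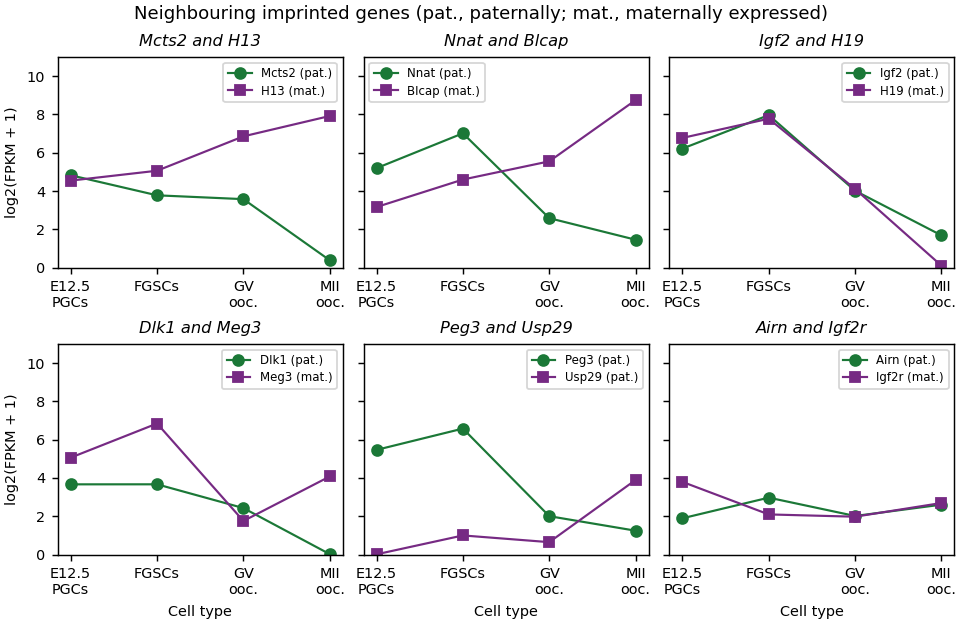
Level of 6 pairs of imprinted genes in the same region, log2(FPKM + 1) against cell type, with green circles for the first and purple squares for the second gene of each title (pat., paternally, and mat., maternally expressed). H13 and Blcap reach 241 and 430 FPKM in MII oocytes (the last step of H13 did not hold on rescaling) while Mcts2 and Nnat end at 0.302 and 1.74 FPKM in MII oocytes, and Igf2 and H19 run together up to GV oocytes.

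Mest, whose level in MII oocytes was 46.6 times that in GV oocytes, is listed with the same span as Copg2 and Mir335 (chr6:30673547-30846794, mm9). Copg2, a coat protein gene that overlaps the end of Mest, was at 28.6 FPKM in PGCs, 44.1 in FGSCs, 22.8 in GV oocytes and 177 in MII oocytes, so that it was also higher in MII than in GV oocytes, by 2.90. Reads of the overlap may be split between them, and this was not tested. In all, 19 of the 46 members were listed with a span that holds another gene, including 5 pairs of members.

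A list of 14 genes that set or guard the imprints, or act in demethylation (Tet1, Tet2 and Tdg), was measured in the same cells. In GV oocytes 7 of them were higher (background 13.7% of all genes) and 1 lower (12.6%) than in PGCs. Against FGSCs 6 were higher (11.5%) and 3 lower (11.4%) in GV oocytes. In FGSCs 3 were higher (9.31%) and 1 lower (7.93%) than in PGCs. Over genes with a mean of at least 1 FPKM these background shares were 31.5% and 29.1%, 26.7% and 25.2%, and 19.3% and 18.4%. Dnmt3l, the partner that maternal imprints need, was listed at 0 in PGCs and FGSCs and was at 19.2 FPKM in GV oocytes and 100.1 in MII oocytes. Dnmt3a, the methyltransferase it works with, was at 35.6, 80.9, 147 and 206 FPKM in order of stage. Between MII and GV oocytes Dnmt3l differed by 2.32 and Dnmt3a by 0.48, under the limit. When each cell type was rescaled to the same sum, Dnmt3a was lower in MII oocytes, at 167 against 262 in GV oocytes. By median ratios Dnmt3a was at 161 in MII oocytes against 157 in GV oocytes. Dnmt3l stayed higher in MII oocytes under both, at 81.3 against 34.3 and at 78.2 against 20.6. Kdm1b, a histone demethylase needed for some maternal imprints, was at 2.92, 4.31, 84.4 and 41.1 FPKM. Zfp57, which protects imprints after fertilisation, was at 11.1, 9.78, 418 and 794 FPKM, and Dppa3 at 1288, 462, 4211 and 10134 FPKM. Uhrf1 and Dnmt1, which copy methylation to new DNA, stood at 332 and 303 FPKM in GV oocytes, against 1.73 and 11.5 FPKM in PGCs and 17.97 and 22.1 FPKM in FGSCs. Tdg, a glycosylase that acts in active demethylation, was the gene of the list that was lower in GV oocytes than in PGCs, at 1.93 FPKM there against 23.2 FPKM in PGCs and 35.1 FPKM in FGSCs. Against FGSCs, Zfp445 and Tet1 were lower in GV oocytes as well. Tet1, which oxidises methylated cytosine, was at 20.8 FPKM in MII oocytes against 1.84 FPKM in GV oocytes, a rise of 2.94. In that comparison 7 genes of the list rose and 3 fell. The background was 15.7% and 12.2% of all genes, and 35.6% and 28.4% of those with a mean of at least 1 FPKM. These counts are of the deposited values, and the calls of this list were not repeated after rescaling.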

How the data were processed

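RNA of 9 libraries was measured by sequencing of cDNA, made from cell lysates with an oligo(dT) primer and amplified by PCR, per the labels. The authors aligned reads with TopHat2 and estimated levels with Cufflinks 2.2.1 on mm9, per the submitters' processing notes, where the paper names Trimmomatic, mm10 and RefSeq. The 6 deposited tables carry Ensembl identifiers and mm9 positions. The FPKM values in them were pooled by the authors over libraries, 1 per gene and cell type, and were the same in each table that holds a cell type. The deposited log2 fold changes, test statistics, p-values and q-values are the study's own comparisons and were not used. Depth is unknown, and no interval could be given.

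E12.5 PGC and FGSC values were taken from the first table and GV and MII oocyte values from the sixth. A repeated symbol kept its row with the highest FPKM. Starts of spans count from 0 in the tables, since 13999 of 32935 span lengths then equal the gene length in GENCODE (334 otherwise), and 1 was added. Differences are of log2(FPKM + 1), and a call is a difference of at least 1. All 46 members are accounted for: those reaching 5 FPKM in a cell type have all their values given, and the other 11 are named with their range or highest value. Members and lists were chosen with earlier results of these data known, so no list carries independent support. Parental classes are background knowledge. Of the lists, Adgre1 (leukocytes) and Kcnq1ot1, Peg13, Zfp264 and Zim3 (other imprinted genes) had no matching symbol. Promoters are RefSeq windows of GRCm38.p6. The calculations used Python 3.11.15, pandas 2.3.3 and numpy 2.4.6, and figures matplotlib 3.10.9. The code that makes the calls was checked on values multiplied by known folds without noise. That check cannot show how reliable calls from 1 pooled value are.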

Additional observations from a re-analysis of the deposited data

How the results depend on the processing

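With 1 pooled value per cell type no library could be left out. No paired analysis was possible because the pooled columns carry no replicate number. A pseudocount of 0.1 FPKM gave 11 members higher in GV oocytes than in PGCs (6 as reported) and 18 lower in MII than in GV oocytes (11). Rescaling to the same sum gave 23 higher and 4 lower in FGSCs against PGCs (13 and 8), 6 higher and 18 lower in MII against GV oocytes (11 and 11), and turned H13 in the last comparison to -0.0650 (1.06). Median ratios gave 5 lower in FGSCs against PGCs. A 4-fold limit gave 1 higher and 2 lower in FGSCs against PGCs, 2 higher in GV oocytes against FGSCs (4), and 6 higher and 7 lower in MII against GV oocytes. Without the 19 members that share a span, an alternative chosen after seeing the data, 27 members gave 3 higher and 6 lower in FGSCs than in PGCs (13 and 8), 3 higher and 15 lower in GV oocytes than in PGCs, 2 higher and 14 lower in GV oocytes than in FGSCs, and 7 higher and 6 lower in MII than in GV oocytes, from fewer members. A mean of at least 1 FPKM and summed rows kept all 8 counts within 1.5 times. Counting Gnas and Grb10 as maternally expressed moved none of the counts of that class by over 1.5 times. Of 920 values of the 35 members given in full under 7 alternatives, 846 kept call and direction, 73 gained or lost a call and 1 turned. The number of reads behind values under 1 FPKM is unknown.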

Other observations

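Imprinted genes outside the 46 were also more often lower than higher in GV oocytes. Of 28 further imprinted genes that were measured, 9 were lower (background 12.6% of all genes) and 2 higher (13.7%) in GV oocytes than in PGCs, and 12 lower (11.4%) and 2 higher (11.5%) in GV oocytes than in FGSCs. In FGSCs 7 were higher (background 9.31%) and 5 lower (7.93%) than in PGCs. In MII oocytes 5 were higher (background 15.7%) and 4 lower (12.2%) than in GV oocytes, shares close to the background. Cd81, a tetraspanin, was at 303 FPKM in PGCs, 147 in FGSCs, 35.2 in GV oocytes and 6.99 in MII oocytes. Th, tyrosine hydroxylase of catecholamine synthesis, had its highest values in oocytes, at 0.247 and 0.274 FPKM in PGCs and FGSCs, 85.4 in GV oocytes and 42.9 in MII oocytes. Its difference between GV oocytes and PGCs was 6.12 on the log2(FPKM + 1) scale. Ddc, the next enzyme of that pathway, was at 0.398 FPKM in GV oocytes and 16.4 FPKM in PGCs. Nap1l4, a histone chaperone, differed by less than 1 in each comparison, at 73.2, 104, 80.1 and 71.0 FPKM in PGCs, FGSCs, GV and MII oocytes. These genes were named after their values were seen.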
